A study of Mus musculus with 36 samples.

Results

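A set of 10 genes is described here: Asns, Trib3, Chac1 and Ddit3, which answer amino acid shortage and stress, Psat1, Phgdh, Mthfd2 and Shmt2, which make serine and move its carbon through mitochondrial folate, and Slc7a11 and Slc3a2, the chains of the cystine transporter. They were chosen by name as known targets of the transcription factor ATF4, and each symbol was matched to 1 of the 55414 gene identifiers in the deposited tables, so that all 10 members have counts. For Ddit3 a shorter identifier with the same symbol, without counts in any library, was set aside. Sorted mouse stem and progenitor cells of the blood were sequenced as bulk RNA in 36 libraries, 4 in each of 9 groups. The leukaemia groups came from 12 mice with terminal leukaemia that carried Kmt2a-AFF1, a fusion gene of infant leukaemia, with overexpression of a microRNA, named miR-130b in the sample labels and miR-130a in the series' design text. Each of these mice gave 1 central nervous system (CNS) and 1 bone marrow (BM) library of a single sorted type. The control groups came from BM of 4 mice that carried the same Kmt2a-AFF1 fusion with overexpression of miR-scramble and had no leukaemia, so that the fusion was present in every group analysed here, controls included. By the mouse numbers in the labels each control mouse gave all 3 sorted types, although the design text speaks of a single control mouse. What drives the fusion or the microRNA, the age of the mice and the number of cells per library were not stated in the labels. The sorted types, all without mature lineage markers and with c-Kit, were HSC (labelled HSC/MPP, stem cells and multipotent progenitors with Sca-1 and without Flt3), LMPP (lymphoid-primed progenitors with Sca-1 and Flt3) and LK (labelled LK/CLP, progenitors without Sca-1).

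ATF4 is made when the translation factor eIF2alpha is phosphorylated, which happens when uncharged tRNA activates the kinase GCN2, when unfolded protein activates PERK in the endoplasmic reticulum, or when haem is short. It pairs with C/EBP factors on composite sites in its targets and raises enzymes that make non-essential amino acids, transporters that import them, tRNA synthetases and, under lasting stress, the death factor CHOP. Blood progenitors and leukaemia cells that divide need serine and glycine for nucleotides, and lymphoblasts with little asparagine synthetase are known to be sensitive to asparaginase, a drug that removes asparagine from plasma.

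Promoter sequence of the members is shown because it separates them by whether they hold the composite element in this window. In the RefSeq windows of build GRCm38.p6, 250 bases before to 50 bases after the start site, the motif TGATGNAA was searched on both strands. It was found for 4 of the 10 members, Asns, Trib3, Chac1 and Slc7a11, and in none of the windows of Ddit3, Psat1, Phgdh, Mthfd2, Shmt2 and Slc3a2. Of 27025 genes with a window in the table, 4.51% held it in any of their windows. Capitals mark the match, the matches of Slc7a11 on opposite strands do not overlap, and each sequence is written 5′ to 3′ on the gene's strand. The promoters of Asns at chr6:7693160-7693459 (minus strand) and Slc7a11 at chr3:50443564-50443863 (minus strand) hold matches whose first base lies 23 bases before the Asns start site, and 66 and 47 bases before that of Slc7a11.
Asns promoter: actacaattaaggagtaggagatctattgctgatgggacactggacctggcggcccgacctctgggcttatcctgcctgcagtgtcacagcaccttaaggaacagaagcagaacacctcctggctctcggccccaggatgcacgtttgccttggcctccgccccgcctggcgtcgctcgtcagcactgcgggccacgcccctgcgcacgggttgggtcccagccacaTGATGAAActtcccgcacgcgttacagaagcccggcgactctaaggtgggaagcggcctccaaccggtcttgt
Slc7a11 promoter: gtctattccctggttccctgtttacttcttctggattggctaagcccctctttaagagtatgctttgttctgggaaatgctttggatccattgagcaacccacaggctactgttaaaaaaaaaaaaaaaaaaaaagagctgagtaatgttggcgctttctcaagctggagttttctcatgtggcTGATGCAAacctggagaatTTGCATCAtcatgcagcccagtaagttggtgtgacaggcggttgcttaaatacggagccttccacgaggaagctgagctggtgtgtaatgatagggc
For Chac1 (chr2:119350992-119351291, plus strand) and Trib3 (chr2:152344011-152344310, minus strand) the 30 bases around the match are given. The Chac1 match starts 193 bases before the start site and the Trib3 match 15 bases after it, both on the opposite strand.
Chac1, 30 bases: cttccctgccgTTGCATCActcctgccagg
Trib3, 30 bases: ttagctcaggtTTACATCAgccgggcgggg
The windows of Phgdh at chr3:98339920-98340219 (minus strand) and Shmt2 at chr10:127522395-127522694 (minus strand), the members with the highest counts over background, hold no match to these letters.
Phgdh promoter: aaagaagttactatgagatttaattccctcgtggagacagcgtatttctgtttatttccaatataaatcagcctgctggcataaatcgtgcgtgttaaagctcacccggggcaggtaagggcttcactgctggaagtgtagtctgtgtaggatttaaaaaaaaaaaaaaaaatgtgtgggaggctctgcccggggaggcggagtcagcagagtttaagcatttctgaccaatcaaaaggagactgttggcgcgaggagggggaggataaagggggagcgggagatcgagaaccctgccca
Shmt2 promoter: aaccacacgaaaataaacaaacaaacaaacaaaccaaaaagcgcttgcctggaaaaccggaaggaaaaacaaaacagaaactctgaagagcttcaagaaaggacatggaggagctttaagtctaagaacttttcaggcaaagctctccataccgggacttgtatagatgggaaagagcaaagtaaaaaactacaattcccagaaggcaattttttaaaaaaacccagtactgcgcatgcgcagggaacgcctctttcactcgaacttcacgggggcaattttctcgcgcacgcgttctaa

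Total counts per library ran from 1909638 to 30442297. Genes of smell, taste and pheromone receptors, taken as silent in these cells, carried counts in every library and set a background per kb of exon. That background amounted to 3.30 to 23.9% of counts in CNS HSC, 0.330 to 8.29% in CNS LMPP and 0.886 to 8.48% in CNS LK. In leukaemia BM it was 8.38 to 25.8% in HSC, 0.308 to 6.19% in LMPP and 0.811 to 8.30% in LK, and in control BM 20.9 to 27.0% in HSC, 13.5 to 26.1% in LMPP and 6.26 to 12.05% in LK. The sort was visible in some marker genes and not in others. Ly6a, which encodes Sca-1, ran from 9.94 to 55.4 CPM over CNS HSC and CNS LMPP libraries and from 0.876 to 3.76 CPM in CNS LK. Flt3 ran from 142 to 480 CPM in control LMPP, and in control HSC and control LK it stayed between 30.6 and 49.5 CPM. In leukaemia BM Flt3 ran from 34.8 to 118 CPM in HSC, 229 to 822 CPM in LMPP and 117 to 417 CPM in LK. LMPP and LK thus overlapped there. Hlf, a marker of HSC, ran from 98.8 to 114 CPM in control HSC and from 74.4 to 185 CPM in control LMPP. Levels in CPM are counts relative to the summed counts of genes above background, scaled over the 36 libraries by trimmed means.

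A count was taken as above background where it exceeded 3 times the background for the gene's exon length plus 10 counts. Phgdh and Shmt2 were above background in all 36 libraries, Slc3a2 in 35, Ddit3 in 28, Psat1 in 27, Mthfd2 in 25 and Asns in 22. Slc7a11 reached it in 7 libraries, all of leukaemia, and Trib3 and Chac1 in 3 libraries each, all of leukaemia. Filters for the tests required 4 libraries above background in a table: 8 of the 10 members passed in the leukaemia table and 7 in the control table, where Slc7a11 also failed. Per kb of exon and with background subtracted, mean levels in control LK ran from 0.375 ± 0.168 CPM per kb for Slc7a11 to 51.6 ± 6.74 CPM per kb for Phgdh (SD, n = 4). On that scale Asns, at 1.79 ± 1.22 CPM per kb in leukaemia BM LK and 18.8 ± 3.61 CPM per kb in control BM LK, stood below Ddit3 (5.73 ± 2.03) in the leukaemia group and beside Slc3a2 (18.4 ± 0.956) in the control group.

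**Figure D1:**
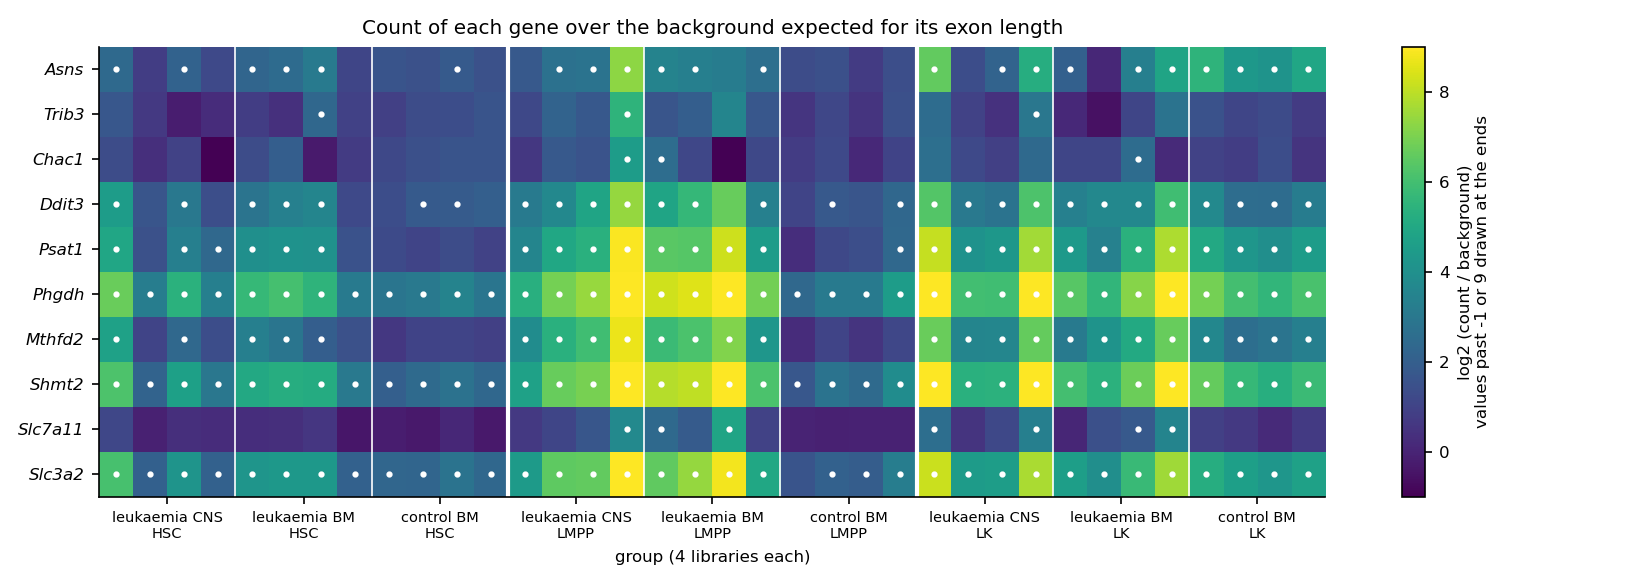
Count of each of the 10 genes (rows) over the background expected for its exon length, as log2, in the 36 libraries (columns, 4 per group); white dots mark counts above background. Phgdh and Shmt2 carry a dot in all 36 libraries and Slc7a11 in 7.

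Each comparison was put to a pair of edgeR tests. The first took every gene that reached 10 counts in 4 or more libraries, and the second took genes above background. The pair is given because scaling moved the differences: between leukaemia and control the first test lay above the second by a median of 1.17 in HSC, 1.60 in LMPP and 0.34 in LK on the log2 scale, and between control HSC and LK it lay below by 1.61. Below, a gene is said to be higher or lower where both tests passed an adjusted p of 0.05 in the same direction, and any other case is given as values. Leukaemia and control libraries stand in different tables, so disease, table and any handling that differed between them cannot be told apart. In bulk RNA fewer cells with a transcript and less transcript per cell cannot be told apart either.

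The amino acid deprivation genes differed between leukaemia and control mainly in Asns, which makes asparagine from aspartate and glutamine. In BM LK, Asns had 8.10, 2.07, 8.71 and 5.61 CPM in the 4 leukaemia libraries, against 64.4, 45.1, 46.0 and 58.0 CPM in the 4 control libraries. Every leukaemia library lay far below every control library. The log2 difference was -2.78 ± 0.42 (SE) in the first edgeR test (adjusted p = 2.6e-05) and -3.13 ± 0.37 in the second (adjusted p = 2.8e-06), and -3.50 ± 0.58 with background subtracted (adjusted p = 0.00023). Asns was the single member lower in LK, where both tests put 1.8% of 15690 genes lower and 5.79% higher, and no member was higher.

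In the other cell types Asns stood nearer to background, and the tests did not give a call in common. In BM LMPP it had 4.78, 3.10, 0.797 and 8.60 CPM in leukaemia, against 18.5, 16.8, 10.5 and 9.90 CPM in control. All 4 leukaemia values lay below the 4 control values, but none of the control LMPP libraries was above background for Asns. The log2 difference was 0.04 ± 0.41 in the first edgeR test (adjusted p = 0.93) and -1.62 ± 0.38 in the second (adjusted p = 0.00073). In BM HSC the means were 12.7 ± 3.39 CPM in leukaemia and 18.5 ± 1.89 CPM in control (SD, n = 4 each), with log2 differences of 0.50 ± 0.40 and -0.66 ± 0.35 that passed neither test. The Asns difference between leukaemia and control depended on cell type in both tests (edgeR interaction, adjusted p = 0.00079 in the first and 0.0034 in the second).

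Markers of mature neutrophils, 8 genes none of which was at 0 in either group, were higher in leukaemia BM LK, where Asns was lower. Their summed level was 604, 9341, 12296 and 1627 CPM in leukaemia BM LK, against 32.3, 47.6, 46.0 and 43.5 CPM in control BM LK. In the same order of replicates, Asns had 8.10, 2.07, 8.71 and 5.61 CPM in leukaemia BM LK. The sorted populations also differed in progenitor genes. Mpo, a granule gene, stood at 1650 to 2530 CPM in leukaemia BM LK and 4737 to 7217 CPM in control BM LK. Flt3 stood at 117 to 417 CPM in leukaemia BM LK and 30.6 to 49.5 CPM in control BM LK. The part of these differences in cell makeup in the Asns result was not tested.

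The other stress effectors gave little signal. Trib3, a pseudokinase that feeds back on ATF4, had 0.797 to 8.93 CPM over leukaemia BM libraries and 2.53 to 13.3 CPM over control BM libraries. Chac1, which breaks down glutathione, had 0 to 5.91 CPM in leukaemia BM and 1.65 to 10.5 CPM in control BM. None of the 12 control libraries was above background for either gene, so their levels there are limited by background. Neither gene was past the threshold between leukaemia and control in the first edgeR test (log2 differences from -1.12 to 0.06), and neither entered the second.

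Ddit3, which encodes the factor CHOP, was near even across the groups. It had 7.65, 9.85, 5.58 and 8.68 CPM in leukaemia BM LMPP and 9.64, 13.5, 12.2 and 12.2 CPM in control BM LMPP, with 1 leukaemia value inside the control range. Group means over all 9 groups lay between 7.94 ± 1.81 CPM in leukaemia BM LMPP and 13.1 ± 1.79 CPM in control BM HSC (SD, n = 4 each). Between leukaemia and control LMPP both edgeR tests passed with opposite signs, 0.94 ± 0.37 (adjusted p = 0.027) in the first and -0.68 ± 0.26 (adjusted p = 0.025) in the second, so that no direction is given for Ddit3.

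**Figure D2:**
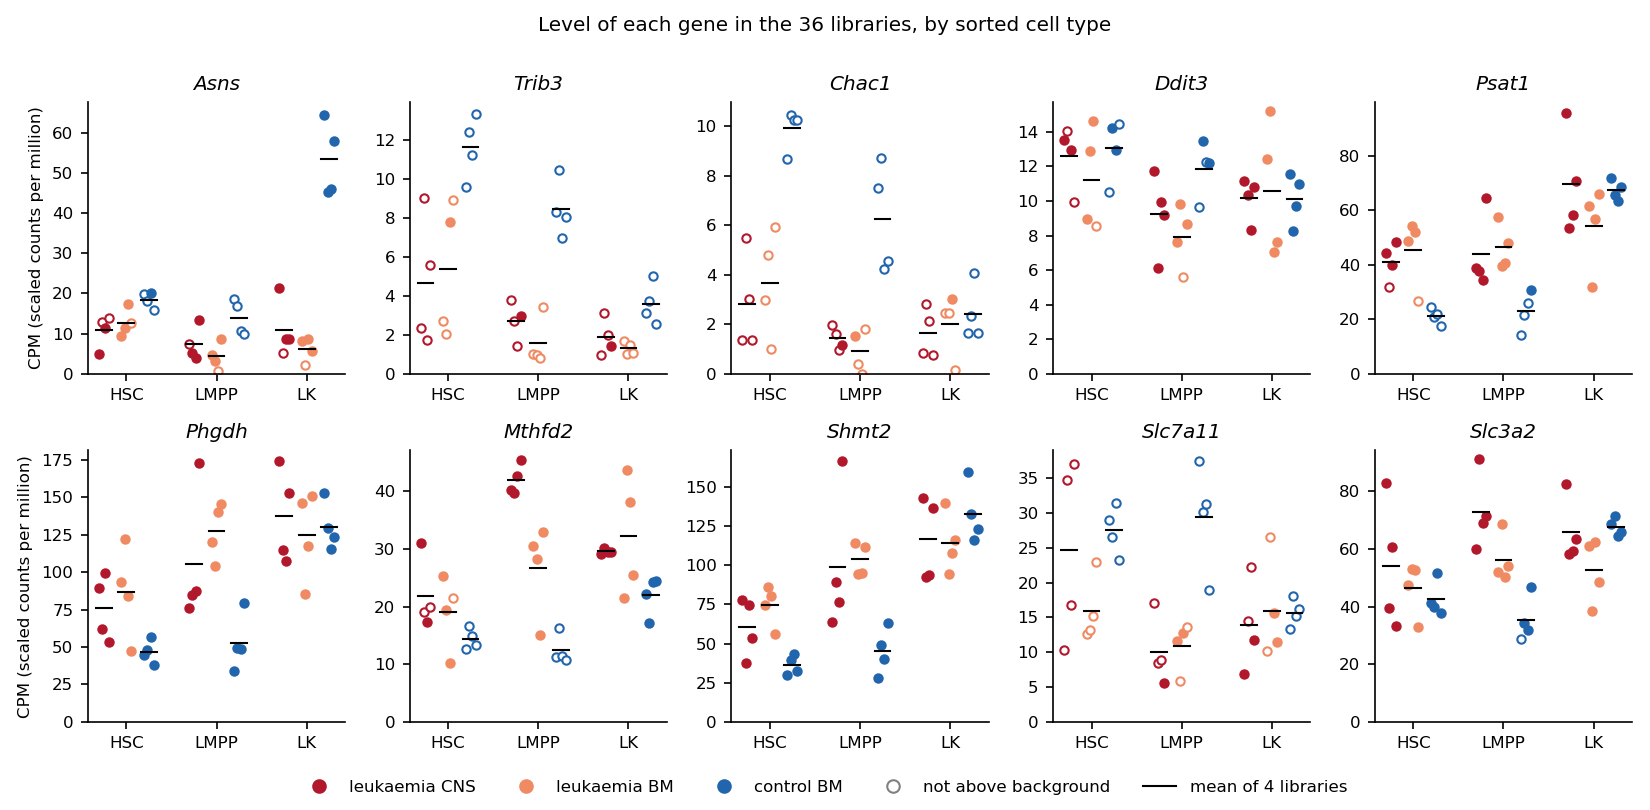
Level of each gene in CPM (vertical axes, each from 0) by sorted type, with leukaemia CNS, leukaemia BM and control BM side by side; points are libraries, open where not above background, and lines are means of 4. Asns in control LK, 45.1 to 64.4 CPM, lies above every other library, and Psat1, Phgdh and Shmt2 are lowest in control HSC and LMPP.

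The serine synthesis enzymes went the other way from Asns and in other cell types. Psat1, Phgdh and Shmt2 were higher in leukaemia than in control in BM HSC and in BM LMPP, and Mthfd2 was higher in BM LMPP. In BM HSC 3 of the 10 members were higher and none lower, where both tests put 28% of genes higher and 0.86% lower. In BM LMPP 5 of 10 were higher and none lower, where 33.3% of genes were higher and 11.9% lower. Over all 10 members the HSC share is near that of all genes, which counts only genes in both tests. Trib3 and Chac1 did not enter the second test, so the shares over the members tested are larger. In BM LK none of these enzymes passed either test. Neutrophil markers summed to 466 to 1434 CPM in leukaemia BM HSC and 106 to 130 CPM in control BM HSC, and in BM LMPP to 8.91 to 30.7 CPM in 3 leukaemia libraries and 4613 CPM in the other, against 86.3 to 146 CPM in control. The 5 markers of LK cells, the type in which these enzymes stood highest in control, summed to 1445 to 2009 CPM in leukaemia BM HSC and 230 to 296 CPM in control BM HSC, and to 430 to 3115 CPM in leukaemia BM LMPP and 181 to 330 CPM in control BM LMPP. The 7 erythroid markers summed to 150 to 395 CPM in leukaemia BM HSC and 60.3 to 73.9 CPM in control BM HSC, and to 223 to 761 CPM in leukaemia BM LMPP and 79.2 to 130 CPM in control BM LMPP. None of the LK and erythroid markers was at 0 in any of these groups, and the part of all these markers in these results was not tested.

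Phgdh, the enzyme that draws the glycolysis intermediate 3-phosphoglycerate into serine synthesis, had 93.7, 122, 83.7 and 47.4 CPM in leukaemia BM HSC, against 44.5, 47.7, 56.9 and 38.0 CPM in control BM HSC. The leukaemia value of replicate 4 fell among the controls, and the other 3 lay above them. In BM LMPP it had 120, 104, 140 and 145 CPM in leukaemia and 34.3, 49.4, 48.5 and 79.6 CPM in control, with no overlap. The log2 difference was 2.03 ± 0.41 and 0.77 ± 0.24 in HSC (adjusted p = 0.00016 and 0.012) and 2.61 ± 0.42 and 1.13 ± 0.24 in LMPP (adjusted p = 2.7e-06 and 0.0003), in the first and second edgeR test. In LK the means were 125 ± 30.3 CPM in leukaemia and 130 ± 16.3 CPM in control. Phgdh has 7 processed pseudogenes of 95.3 to 98.7% identity, which held 25.7 to 54.7% of the counts shared out among Phgdh and these copies, so its own level is uncertain.

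Psat1, the transaminase that follows Phgdh, had 48.9, 54.1, 52.0 and 26.7 CPM in leukaemia BM HSC and 24.4, 20.8, 21.8 and 17.5 CPM in control BM HSC. All leukaemia values lay above all control values, though replicate 4 of leukaemia only narrowly. In BM LMPP it had 57.7, 39.4, 40.7 and 48.2 CPM in leukaemia and 14.1, 21.5, 26.0 and 30.6 CPM in control, again without overlap. The log2 difference was 2.23 ± 0.41 and 0.97 ± 0.23 in HSC (edgeR adjusted p = 4e-05 and 0.0015) and 2.45 ± 0.41 and 0.89 ± 0.23 in LMPP (adjusted p = 4.7e-06 and 0.0016). In LK Psat1 had 61.6, 31.9, 56.9 and 65.9 CPM in leukaemia and 71.7, 65.6, 63.5 and 68.7 CPM in control. Of the 4 control HSC libraries none was above background for Psat1, and of the 4 control LMPP libraries 1 was, so the control level there is an upper limit.

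Shmt2, the mitochondrial enzyme that splits serine into glycine and a folate-bound carbon, was above background in every library. It had 74.6, 86.0, 80.2 and 56.4 CPM in leukaemia BM HSC, against 30.2, 39.7, 43.6 and 32.3 CPM in control BM HSC. It had 114, 94.2, 94.8 and 112 CPM in leukaemia BM LMPP, against 27.8, 49.2, 40.0 and 63.4 CPM in control BM LMPP. In both types every leukaemia library lay above every control library. The log2 difference was 2.13 ± 0.39 and 0.91 ± 0.19 in HSC (edgeR adjusted p = 4.2e-05 and 0.00063) and 2.61 ± 0.39 and 1.07 ± 0.19 in LMPP (adjusted p = 1.2e-06 and 5.7e-05). In LK the means were 114 ± 18.9 CPM in leukaemia and 133 ± 19.1 CPM in control (SD, n = 4 each), with log2 differences of 0.08 ± 0.37 and -0.24 ± 0.18.

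Mthfd2, the mitochondrial folate dehydrogenase downstream of Shmt2, had 30.4, 28.3, 15.1 and 32.9 CPM in leukaemia BM LMPP and 11.2, 16.3, 11.4 and 10.7 CPM in control BM LMPP. Leukaemia replicate 3, the shallowest library with 1909638 counts, fell among the controls, none of which was above background. The log2 difference was 2.66 ± 0.37 and 1.01 ± 0.27 in LMPP (edgeR adjusted p = 4.6e-07 and 0.0024). In HSC it was 1.44 ± 0.36 in the first test (adjusted p = 0.0019) and 0.30 ± 0.27 in the second (adjusted p = 0.36), and in LK 0.86 ± 0.35 and 0.52 ± 0.26 (adjusted p = 0.18 in each).

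Of the cystine transporter, Slc3a2, the heavy chain shared with other amino acid exchangers, was measured well and Slc7a11, the cystine-specific light chain, was not. Slc3a2 had 51.9, 68.6, 50.2 and 54.0 CPM in leukaemia BM LMPP, against 28.9, 34.2, 31.8 and 46.7 CPM in control BM LMPP, without overlap. It was higher in leukaemia LMPP by 2.09 ± 0.37 and 0.53 ± 0.17 on the log2 scale (edgeR adjusted p = 1.1e-05 and 0.0086). In HSC the first test gave 1.24 ± 0.36 (adjusted p = 0.0082) and the second 0.01 ± 0.17 (adjusted p = 0.97), and in LK neither passed. With background subtracted from the counts before the second test, Slc3a2 in LMPP (0.25 ± 0.17, adjusted p = 0.22) and Phgdh in HSC (0.50 ± 0.21, adjusted p = 0.055) no longer passed, and Psat1, Shmt2 and Mthfd2 kept the calls given above.

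Slc7a11, whose exons span 13922 bases in the annotation used, had 12.6 to 22.9 CPM in leukaemia BM HSC and 23.2 to 31.4 CPM in control BM HSC, and its counts in the control libraries of HSC and LMPP were 0.8 to 1.1 times the background. The second edgeR test put it lower in leukaemia HSC (-0.89 ± 0.29, adjusted p = 0.017) and LMPP (-1.59 ± 0.31, adjusted p = 0.00013), and the first did not (0.17 ± 0.31 and 0.08 ± 0.32). These differences set leukaemia libraries against a control level that is background, and no direction is given for the gene.

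**Figure D3:**
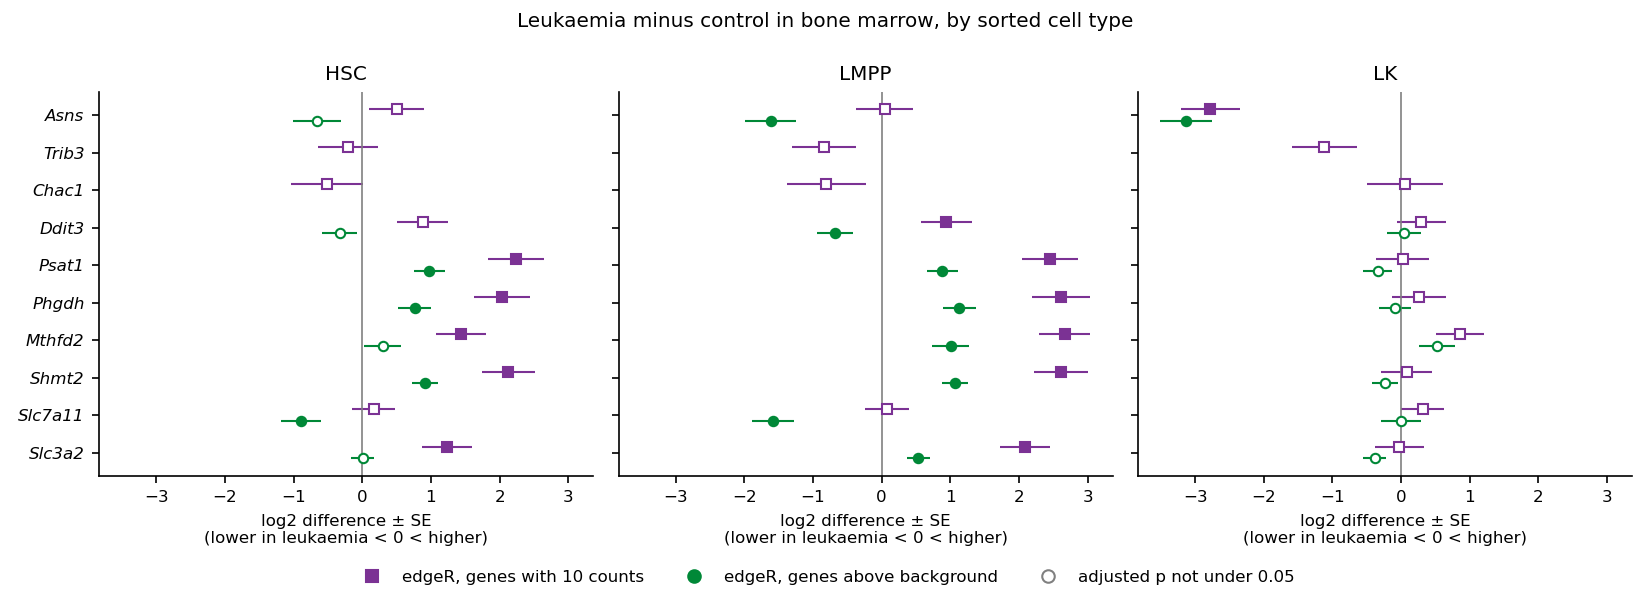
Log2 difference, leukaemia minus control BM, with its SE (horizontal axes) for each gene in HSC, LMPP and LK, by the first edgeR test (squares) and the second (circles); filled symbols have an adjusted p under 0.05. Asns in LK is filled on the lower side in both tests (-2.78 and -3.13), and Psat1, Phgdh and Shmt2 are filled on the higher side in HSC and LMPP.

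The dependence on cell type was tested as an interaction. Asns, Psat1, Phgdh, Shmt2 and Slc3a2, 5 of the 10 members, passed both edgeR tests of the disease by cell type interaction, which 18.2% of 15690 genes passed. For Psat1 the adjusted p was 0.00402 in the first test and 0.0048 in the second, and for Shmt2 0.00298 and 0.0019. For Phgdh it was 0.00901 and 0.021, and for Slc3a2 0.011 and 0.018. Mthfd2 passed the first test alone (0.03, against 0.28 in the second), and Slc7a11 the second alone (0.02). With background subtracted, Phgdh and Slc3a2 no longer passed (adjusted p = 0.065 and 0.066). Phgdh also missed in the second test without leukaemia BM LK replicate 2 (0.055) or without control BM LK replicate 1 (0.054).

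The control cell types were compared within their own table. Asns, Psat1, Phgdh and Shmt2 were lower in control HSC than in control LK, 4 of 10 members lower and none higher, where both tests put 33.9% of 11514 genes lower and 8.88% higher. In control LMPP the same 4 and Mthfd2 and Slc3a2 were lower than in control LK, 6 of 10, where 31.8% of genes were lower and 6.24% higher. Asns had 19.8, 18.0, 20.0 and 16.0 CPM in control HSC and 18.5, 16.8, 10.5 and 9.90 CPM in control LMPP, all far under the 45.1 to 64.4 CPM of control LK. Mthfd2 passed the filter on background through control LK alone, with 4 LK libraries above background and 0 of HSC and LMPP, and Asns and Psat1 passed it through LK with 1 other library each. Their HSC and LMPP counts stood near background. The filter thus favoured a difference from LK for these 3 genes, without forcing it, and the sizes of their differences are limited by background. The counts of 4 and 6 of 10 are therefore a description and nothing is read from them. Phgdh and Shmt2 were above background in all 12 control libraries and Slc3a2 in 11.

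For Asns the log2 difference was -2.73 ± 0.25 and -1.09 ± 0.20 for HSC minus LK (edgeR adjusted p = 1.1e-10 and 7.1e-05) and -3.11 ± 0.26 and -1.58 ± 0.20 for LMPP minus LK (adjusted p = 4.3e-11 and 2.3e-06). For Psat1 it was -2.85 ± 0.27 and -1.24 ± 0.14 in HSC and -2.63 ± 0.27 and -1.21 ± 0.14 in LMPP. For Phgdh the second test gave -1.04 ± 0.16 in HSC and -0.97 ± 0.16 in LMPP, and for Shmt2 -1.44 ± 0.16 and -1.22 ± 0.16. All these were called also with the mouse as a block, which here ties the 3 libraries of a control mouse. For Asns and Psat1, which passed the filter on background through LK, neither these p values nor the block add support. Phgdh and Shmt2 were above background in each control library.

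Mthfd2 and Slc3a2 changed less. In LMPP minus LK Mthfd2 had -1.95 ± 0.21 in the first edgeR test (adjusted p = 4.6e-09) and -0.49 ± 0.19 in the second (adjusted p = 0.029), and Slc3a2 had -2.02 ± 0.25 (adjusted p = 4e-08) and -0.60 ± 0.12 (adjusted p = 0.00028). The Mthfd2 call in LMPP was lost with the mouse as a block and only genes above background, without control mouse 1, 3 or 4 (adjusted p from 0.058 to 0.21). In HSC minus LK the second test gave -0.20 ± 0.19 and -0.24 ± 0.12, which did not pass. Ddit3 turned sign with the scaling in both comparisons, -0.85 ± 0.22 and 0.77 ± 0.19 in HSC minus LK and -0.89 ± 0.22 and 0.57 ± 0.18 in LMPP minus LK. Chac1 had 0.88 ± 0.27 in HSC minus LK in the first test (adjusted p = 0.0084), from levels that were not above background in any control library.

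Control HSC and LMPP were not told apart by any member: 0 of 10 passed both tests, where 0.426% of genes did, and 0 passed either edgeR test alone. In the leukaemia no cell type comparison called a member in the first test. In the second, Shmt2 in CNS HSC minus CNS LK had -0.90 ± 0.25 (edgeR adjusted p = 0.037), 1 of 10 members where 7.55% of genes passed. In CNS HSC minus CNS LMPP, 2 of 10 passed where 12.9% of genes did, Mthfd2 with -0.88 ± 0.26 (adjusted p = 0.03) and Slc7a11 with 1.41 ± 0.45 (adjusted p = 0.044), the last with no CNS HSC library above background. Without CNS HSC replicate 1 the first test called 5 members in CNS HSC minus CNS LK, Shmt2 with -2.01 ± 0.51 (adjusted p = 0.017), and 3 in CNS HSC minus CNS LMPP. The share of all genes called without that library is not given here, so nothing is read from these counts. Shmt2 had 77.7, 37.4, 74.7 and 53.4 CPM in CNS HSC and 143, 92.6, 93.9 and 137 CPM in CNS LK, without overlap. Whether cell types differ less in leukaemia than in control is the interaction above, which was tested in BM.

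**Figure D4:**
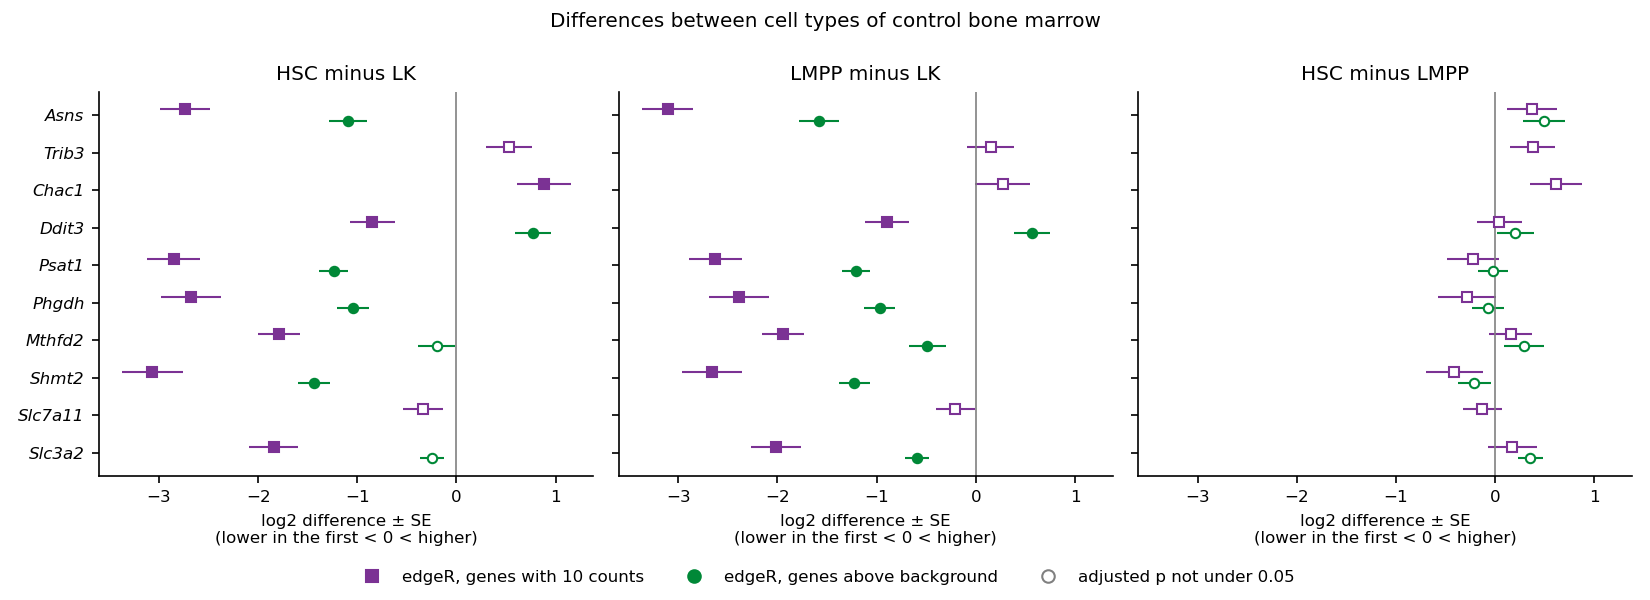
Log2 difference between sorted types of control BM with its SE (horizontal axes), by the first edgeR test (squares) and the second (circles); filled symbols have an adjusted p under 0.05. Asns, Psat1, Phgdh and Shmt2 are filled below 0 in both tests for HSC minus LK and LMPP minus LK, and Ddit3 is filled on opposite sides.

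Between CNS and BM of the leukaemia mice no member passed a test. Over the 3 cell types the first edgeR test called 0 of 10 members and 0% of 40332 genes, with 794 genes at an unadjusted p under 0.05, and DESeq2 called 74 genes and no member. With the mouse as a block and on genes above background, edgeR called 387 of 16175 genes, 2.39%, and again no member. Errors in this paired test were smaller for Shmt2, Phgdh and Psat1 than for Ddit3 and Slc7a11. In that paired test the log2 difference was -0.17 ± 0.12 for Shmt2, -0.14 ± 0.12 for Phgdh and 0.03 ± 0.13 for Psat1. For Ddit3 it was 0.10 ± 0.16 and for Slc7a11 0.02 ± 0.20, and in the first test Trib3 had 0.23 ± 0.34 and Chac1 -0.19 ± 0.42.

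Slc3a2, Asns and Mthfd2 came nearest. Slc3a2 was higher in CNS than in BM in 10 of 12 mice, with a median log2 ratio of 0.39, and the paired edgeR test gave 0.27 ± 0.09 (unadjusted p = 0.013, adjusted p = 0.19). Asns was higher in CNS in 9 of 12 mice, 2 of 4 with HSC, 4 of 4 with LMPP and 3 of 4 with LK, and the paired test gave 0.43 ± 0.18 (unadjusted p = 0.033, adjusted p = 0.32). Mthfd2 was higher in 8 of 12 mice, and the paired test gave 0.25 ± 0.12 (unadjusted p = 0.044, adjusted p = 0.37).

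By cell type the clearest separation was Mthfd2 in LMPP, with 40.2, 39.8, 42.7 and 45.3 CPM in CNS and 30.4, 28.3, 15.1 and 32.9 CPM in BM. The groups did not overlap and CNS was higher in each of the 4 mice, with 0.61 ± 0.20 in the paired edgeR test (unadjusted p = 0.0086, adjusted p = 0.17). Border macrophage markers, 5 genes with none at 0 in either group, summed to 280, 282, 211 and 29.1 CPM in CNS LMPP, against 28.4, 60.2, 27.9 and 35.6 CPM in BM LMPP, and their part was not tested. Mthfd2 was higher in CNS in mice 1, 2 and 3, where the marker sum was higher in CNS too. It was also higher in mouse 4, where the sum was not. In LK Asns had 21.2, 5.17, 8.71 and 8.56 CPM in CNS and 8.10, 2.07, 8.71 and 5.61 CPM in BM, with 1.01 ± 0.56 in the first test. The values of CNS LK thus overlapped those of BM LK, and lay, like them, below the 45.1 to 64.4 CPM of control BM LK. The niche by cell type interaction called no member and no gene in edgeR.

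Cells of the brain could enter a CNS sort. Microglia markers, 8 genes, summed to 1688 CPM in CNS HSC replicate 1 and to 81.9 to 170 CPM in the other CNS HSC libraries, against 49.4 to 116 CPM in leukaemia BM HSC. That library also had the highest Slc3a2 of CNS HSC (82.8 CPM, against 33.1 to 60.5 CPM in the others) and the lowest Asns (5.03 CPM, against 11.4 to 13.8 CPM). In LMPP alone the fit with the mouse as a block, on genes above background, called 0 of 10 members and 1.88% of genes, and 1.55% of genes were higher in CNS. In LK alone it called 0 of 10 members and 0.00618% of genes. With each of the 12 mice left out in turn, no member was called in the paired test, and Slc3a2 ranged from 0.19 to 0.33.

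**Figure D5:**
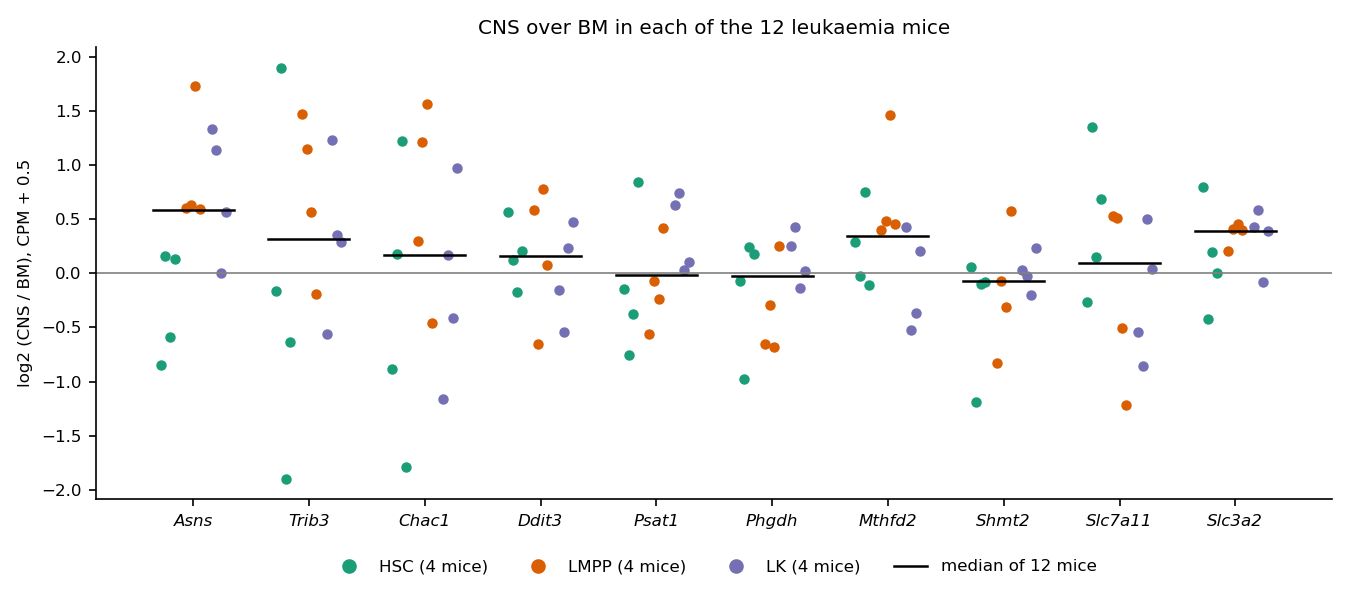
Log2 ratio of CNS over BM level (CPM plus 0.5, vertical axis) for each gene in the 12 leukaemia mice, coloured by sorted type, with the median as a line. Slc3a2 lies above 0 in 10 mice, Asns in 9, and Psat1 and Phgdh in 6 each.

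Other genes of the pathway were read from lists compiled with the members, and are given as counts of genes called in both tests. Of all 15690 genes, 28% were higher in leukaemia HSC, 33.3% in LMPP and 5.79% in LK, and 0.86%, 11.9% and 1.8% were lower. Of all 11514 genes, 33.9% were lower in control HSC than in LK and 31.8% in control LMPP. Atf4 itself was higher in leukaemia than in control in HSC (2.81 ± 0.42 and 1.56 ± 0.24, edgeR adjusted p = 4.9e-06 and 2.6e-05) and LMPP (3.03 ± 0.43 and 1.52 ± 0.24), and had 0.52 ± 0.40 and 0.17 ± 0.23 in LK. Its partner Cebpg was higher in HSC and LMPP too, by 0.64 ± 0.16 and 0.74 ± 0.16 in the second test. Of 7 ATF4 and partner factors, 3 were higher in HSC, 4 in LMPP and 1 in LK, Jdp2, and none was lower.

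Of 13 aminoacyl tRNA synthetases, which charge tRNA with amino acids, 10 were higher in leukaemia HSC, 11 in LMPP and 0 in LK, with none lower. Their median log2 difference in the second test was 0.51 in HSC and 0.80 in LMPP, where the median of all genes was -0.03 and 0.02. Gars1, for glycine, had 0.79 ± 0.19 in HSC and 0.92 ± 0.19 in LMPP. In control BM 12 of the 13 were lower in HSC than in LK and 12 in LMPP than in LK.

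A list of 17 genes of the unfolded protein response held endoplasmic reticulum chaperones and also Xbp1, Edem1, Sel1l and Syvn1. Of these 17, 15 were higher in leukaemia HSC, 16 in LMPP and 1 in LK, with none lower. Hspa5, which encodes BiP, had 2.00 ± 0.24 in HSC and 1.89 ± 0.24 in LMPP in the second edgeR test (adjusted p = 2.6e-06 and 3.1e-06), and -0.12 ± 0.23 in LK. Of 8 eIF2alpha kinases and regulators 4 were higher in HSC and 4 in LMPP, among them Eif2s1, the eIF2alpha subunit itself.

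Of 16 other serine, glycine and folate enzymes 3 were higher in HSC (Mthfd1l, Tyms and the mitochondrial serine carrier Sfxn1) and none lower, and 4 were higher and 1 lower in LMPP, smaller shares of higher genes than over all genes. In LK Mthfd1, the cytosolic folate enzyme, was lower, by 1.50 ± 0.38 in the first edgeR test and 1.83 ± 0.18 in the second (adjusted p = 0.013 and 1.8e-07), and no other list member of this group passed both. Psph, the last enzyme of serine synthesis, passed the second test in LMPP with -0.76 ± 0.22 and the first with 0.91 ± 0.33, so that it has no direction here.

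Of 12 other amino acid transporters 4 were higher in HSC and 5 in LMPP. Among them was Slc7a5, a partner of Slc3a2 in leucine uptake (0.68 ± 0.20 in HSC and 0.91 ± 0.20 in LMPP, second test). Over all 12 these shares were not far above those of all genes. Slc7a3, Slc1a4 and Slc6a9 did not enter the second test, so the shares over the transporters tested are larger. In LK Slc43a1 alone of this list was called, and lower. Of 19 other ATF4 targets 2 were higher in HSC, 5 in LMPP and 1, Ddit4, in LK. Only 12 of the 19 were above background and could pass both tests. Over those 12 the share of higher genes was below that of all genes in HSC and above it in LMPP. In LK their median in the second test was 0.23, over the 12 that were above background, and 3 of them were lower and 1 higher in that test alone, where 6.82% of all genes were lower and 9.75% higher. Of 13 NRF2 targets and glutathione enzymes 4 were higher in HSC and 5 in LMPP, and in LK Nqo1 and Gclm were lower.

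Across libraries the members did not move as 1 block. Over the 24 leukaemia libraries, on log2 CPM scaled within that table, Pearson's r of each member with the mean of the other members was 0.65 for Psat1, 0.48 for Shmt2, 0.46 for Phgdh, 0.18 for Slc3a2, 0.13 for Asns, -0.03 for Mthfd2, -0.12 for Ddit3 and -0.59 for Slc7a11. The genes most like the mean of the 8 members above background were Gm10110, Rrs1, Amd1, Lyar and Utp18, with r of 0.82 to 0.86. Over the 12 control libraries r was 0.61 to 0.83 for 6 members and -0.75 for Ddit3, and Pes1, Dctn1, Frg1, Sumo3 and Ahcy came nearest, with r of 0.96 to 0.97. These values are descriptions over libraries that share mouse, cell type, depth and background share.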

How the data were processed

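Bulk RNA of 36 sorted libraries was sequenced from a stranded total RNA kit for very small input, per the labels' protocols. The authors deposited 2 tables of whole-number counts per gene, 1 with 24 leukaemia libraries and 1 with 12 control libraries. The tables are called normalised, but the column totals differ and no scaling shows in the values, so they were used as raw counts. Build GRCm39 and DESeq2 are named in the submitters' processing notes. Not given in the sources used here are the aligner, the counting tool, its strand setting and the annotation.

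Of the 55414 identifiers, 52081 were matched to a symbol and 52133 to an exon length of a GRCm38 annotation. Of 116 genes in the lists, 115 were matched. Background per kb came from 2028 sensory receptor genes, with the top 5% trimmed. Comparisons were fitted with edgeR 4.0.16 (quasi-likelihood, TMM, R 4.3.3) on genes that reached 10 counts in 4 or more libraries, and again on genes above background in at least 4 libraries, each over all genes with Benjamini-Hochberg adjustment. The same 24 BM libraries of both tables entered 1 joint fit. An SE is the absolute log2 difference over the square root of F. DESeq2 1.42.0, its size factors, no low-count filter, background subtraction (chosen after seeing the data), the mouse as a block and leaving out libraries were alternatives. The fits were tested on simulated data.

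By the mouse numbers in the labels, the CNS and BM libraries of a sorted type with the same number come from 1 leukaemia mouse, and the 3 control libraries with the same number from 1 control mouse. Deviations of such libraries from group means correlated with a median r of 0.25 in 12 leukaemia pairs (-0.47 to 0.69) and -0.03 in 12 control pairs (-0.44 to 0.14). Replicates are separate mice within a group. Pair ratios are log2 of CPM plus 0.5. The precision is limited by depth, from 1909638 to 30442297 counts. Ddit3 and Shmt2 share exon bases with genes on the opposite strand (Mars and Ndufa4l2), and without a stated strand setting these reads cannot be told apart. The members and lists were chosen with earlier results of these data known. Named are all members, and from each list those past the threshold or the few of smallest p.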

Additional observations from a re-analysis of the deposited data

Results flagged for a closer look

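Of 90 groups of 4 libraries examined (10 genes in 9 groups), 5 held a library far from the other 3. Chance alone flags about 1 in 20 groups. Trib3 stood at 3.44 CPM in leukaemia BM LMPP replicate 4, Chac1 at 8.70 CPM in control BM HSC replicate 1, and Mthfd2 at 16.3 CPM in control BM LMPP replicate 2. Leukaemia CNS LMPP replicate 4 stood apart for both Psat1 (64.5 CPM) and Phgdh (172.5 CPM).

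For 6 members the difference between leukaemia and control BM differed between the cell types in the first edgeR test. Of all 43483 genes in that test, 5458 passed. The adjusted p of the interaction was 0.00079 for Asns, 0.00298 for Shmt2, 0.00402 for Psat1, 0.00901 for Phgdh, 0.0114 for Slc3a2 and 0.0296 for Mthfd2. Mthfd2 did not pass the second test.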

How the results depend on the processing

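The Asns difference in LK and the Psat1, Phgdh and Shmt2 differences in HSC and LMPP between leukaemia and control kept direction and call with each library left out, in both tests. The count of members called between leukaemia and control HSC, 5 in the first test, was 3 with DESeq2 size factors in edgeR, 2 with background subtracted, and 5 to 6 with a library left out. On genes above background it was 3 to 4 with a library left out. In LK it was 2 with DESeq2 in place of 1. In CNS HSC minus LK it was 3 with DESeq2, 1 on genes above background and 0 to 5 with a library left out, in place of 0. In CNS HSC minus LMPP it was 3 with DESeq2, 2 on genes above background and 0 to 3 with a library left out, in place of 0. In control HSC minus LK, 8 in the first test, it was 5 on genes above background, also with background subtracted or with the replicate block added. With a library left out it was 8 to 9 in the first test, and with a mouse left out of the block on genes above background it was 5. Of all genes in control HSC minus LK, the first test called 18599 of 41609. On genes above background 8164 of 11514 were called, 7355 with background subtracted and 7972 with the block. In leukaemia minus control HSC all genes called were 9288 of 43483, 8179 with size factors and 6919 of 15690 with background subtracted. In LK they were 1529 of 43483, and 3574 with DESeq2. In CNS HSC minus LK they were 0 of 40332, 2957 with DESeq2 and 1222 of 16175 above background. In CNS HSC minus LMPP they were 24, 8896 and 2086 in that order. The member counts are descriptions, and nothing is read from them. The replicate block (the mouse) brought no member past the threshold between CNS and BM.

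Signs turned as follows, all in log2, and the cause was not tested. Leukaemia minus control LMPP, with DESeq2, on genes above background, with size factors and with background subtracted: Asns -1.36, -1.62, -1.35 and -1.74; Ddit3 -0.37, -0.68, -0.39 and -0.84. Slc7a11 had -1.28, -1.59 and -1.28 in the first 3 of these, and in HSC -0.71, -0.89 and -0.71. Slc3a2 in HSC had -0.22 with background subtracted. In control HSC minus LK, on genes above background, with background subtracted and with the block, Ddit3 had 0.77, 1.05 and 0.77, and in LMPP minus LK 0.57, 0.74 and 0.56, and Slc3a2 in HSC minus LK had 0.087 with background subtracted. Slc7a11 in CNS HSC minus LMPP had -0.0186 with background subtracted. In CNS minus BM, Slc7a11 had 0.081 with DESeq2, 0.085 on genes above background, 0.016 without a filter, 0.081 with size factors, 0.043 with background subtracted and 0.017 with the block on genes above background, Shmt2 0.0099 without a filter and Chac1 0.026 with the block. In leukaemia minus control LMPP, with a library left out, Asns had -0.42 to 0.28 in the first test and -2.11 to -1.43 in the second, Ddit3 0.50 to 1.13 and -0.78 to -0.57, and Slc7a11 -0.36 to 0.28 and -1.76 to -1.36. In HSC, Slc7a11 had -0.0707 to 0.24 and -1.15 to -0.71, and Slc3a2 0.97 to 1.50 and -0.0456 to 0.12. For Ddit3 no left-out library turned the sign in control HSC minus LK (-0.97 to -0.63 in the first test, 0.61 to 0.89 with the block on genes above background) or in LMPP minus LK (-1.01 to -0.67 and 0.38 to 0.64). In CNS minus BM, in the first test and then with the block on genes above background, the ranges were -0.0848 to 0.0938 and -0.0851 to 0.15 for Slc7a11, -0.11 to 0.15 and -0.0521 to 0.10 for Psat1, -0.23 to 0.0729 and -0.26 to -0.0822 for Shmt2, -0.23 to 0.0382 and -0.20 to -0.0483 for Phgdh, and -0.0476 to 0.20 and 0.0430 to 0.20 for Ddit3. Over 50 member differences, 1656 alternatives kept direction and call, 114 lost the call, 35 gained it and 184 turned sign. Background limits Trib3, Chac1 and Slc7a11, which passed it in 3, 3 and 7 of 36 libraries.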
